A study of Homo sapiens with 8 samples.

Results

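The genes described here are 10 components of cytosolic DNA sensing: the adaptor gene TMEM173 (now named STING1), the sensor genes CGAS, IFI16, AIM2 and DDX41, the kinase genes TBK1 and IKBKE, the transcription factor gene IRF3, and the ubiquitin ligase genes TRIM56 and TRIM32. They were taken by symbol from count files of 59050 gene symbols, and all 10 were found. RNA was sequenced from 8 xenograft tumours grown from H2122, an established line of human lung cancer. Parental (wild-type) H2122 cells gave 4 of the tumours and SMARCA4 knockout H2122 cells the other 4, and all 8 had been given vehicle. SMARCA4 (BRG1) is a motor subunit of SWI/SNF, the complexes that move nucleosomes, and the title of the series links its mutation to immunity against the tumour and to STING. The labels do not say whether the knockout cells were 1 clone or a pool, nor which host strain, and thus which host immune cells, the tumours grew in.

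DNA in the cytosol is bound by the enzyme cGAS, encoded by CGAS, which makes the second messenger cyclic GMP-AMP (cGAMP). cGAMP binds STING on the endoplasmic reticulum, STING moves to the Golgi and recruits the kinase TBK1 or its relative IKKε (IKBKE), and the kinase phosphorylates IRF3, which enters the nucleus and switches on interferon genes. IFI16 and AIM2 are members of the PYHIN family of DNA-binding proteins; IFI16 is linked to STING signalling, while AIM2 assembles an inflammasome that activates caspase-1.

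Values are given as CPM, read counts scaled to the TMM-adjusted library size, and differences as log2 fold changes of knockout against parental tumours. A gene is called changed at an adjusted p under 0.05 in edgeR's quasi-likelihood test, adjusted by the Benjamini-Hochberg method over all 16219 genes tested. Libraries held 19785922 to 23191698 gene counts. SMARCA4 was at 198 to 235.3 CPM in parental and 22.3 to 31.1 CPM in knockout tumours, so each library lay on the side its label gives. Of 10 epithelial genes, 7 were tested and 2 were called, both lower: KRT7 (1584 to 1801 CPM in parental and 851 to 1097 CPM in knockout tumours) and KRT19 (929 to 1273 and 454 to 572 CPM). EPCAM, at 433 to 564 CPM over all 8 tumours, was not called, and the lung lineage genes NKX2-1 and SFTPC had 0 counts in all 8 libraries. Marker lists of other cell types were summed per tumour: 22 leukocyte genes came to 15.6 to 130 CPM in parental and 26.2 to 50.9 CPM in knockout tumours, 10 endothelial genes to 7.87 to 18.9 and 9.86 to 16.1 CPM, and 10 fibroblast genes to 182 to 612 and 346 to 608 CPM. COL1A1 made up most of the fibroblast sum (174 to 572 CPM in parental and 317 to 565 CPM in knockout tumours), and of the 6 fibroblast genes tested only LUM was called, higher, at 0.104 to 0.638 CPM in parental and 10.1 to 15.5 CPM in knockout tumours. Leukocyte sums were highest in parental replicates 2 (130 CPM) and 3 (106 CPM), and none of the 22 genes was at 0 in all libraries. None of the 12 leukocyte genes that could be tested was called; of 2 endothelial genes tested, VWF was called lower, and CDH5 had 0 counts in every knockout tumour. Beyond a fit with a leukocyte score as a covariate, the part of other cell types in the differences below was not tested. Reads were counted with the human genome build hg38, so the marker sums are of human gene symbols. Whether host cells or the tumour cells themselves gave these reads was not tested. The labels do not say whether tumours of a group came from separate animals, so p-values measure the spread between these samples.

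Of the 10 genes, 3 fell in knockout tumours: IFI16, TMEM173 and IKBKE. None rose, and 5 (TBK1, IRF3, DDX41, TRIM56 and TRIM32) did not pass the test. CGAS and AIM2 had too few reads to be tested. The 3 calls stand against a background in which 27.0% of all tested genes were called, 14.1% lower and 13.0% higher. IFI16 and TMEM173 were called lower with a fall of at least 1 on the log2 scale, as were 5.22% of all tested genes. The groups did not overlap for the same 3 members, against 29.3% of all tested genes and 15.3% with every knockout value below every parental value. The median log2 fold change of the 8 tested members was -0.11, against 0.0035 over all tested genes.

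**Figure D1:**
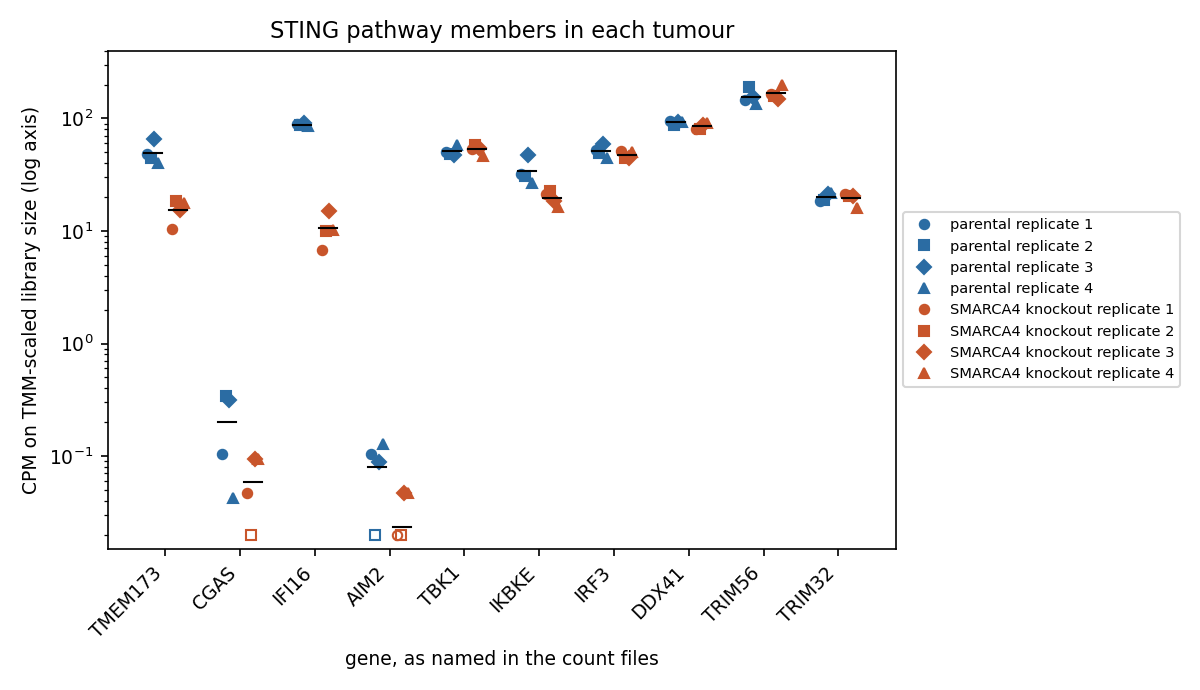
CPM of the 10 genes (log axis) in each of the 4 parental (blue) and 4 knockout (orange) tumours; marker shape gives the replicate, lines give group means, and open symbols drawn at 0.02 CPM stand for 0 counts. The groups do not overlap for TMEM173, IFI16 and IKBKE, and CGAS and AIM2 lie under 0.4 CPM in every tumour.

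Promoter sequences are shown for IFI16 and IKBKE because these are the genes that fell for which a sequence was at hand, and they allow a look at what precedes their start sites. They come from RefSeq on GRCh38.p14, are written 5′ to 3′ on the plus strand, and carry in capitals the matches to an interferon regulatory factor half-site, AANNGAAA, searched on both strands. The IFI16 window is chr1:159009657-159009891 and ends before the first base annotated as exon there. The IKBKE window is chr1:206470226-206470475 and ends at the base before its start.
IFI16: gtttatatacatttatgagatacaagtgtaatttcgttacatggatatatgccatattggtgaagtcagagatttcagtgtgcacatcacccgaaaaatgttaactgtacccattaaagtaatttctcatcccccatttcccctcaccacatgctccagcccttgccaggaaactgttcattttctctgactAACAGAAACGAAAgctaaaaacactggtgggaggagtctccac
IKBKE: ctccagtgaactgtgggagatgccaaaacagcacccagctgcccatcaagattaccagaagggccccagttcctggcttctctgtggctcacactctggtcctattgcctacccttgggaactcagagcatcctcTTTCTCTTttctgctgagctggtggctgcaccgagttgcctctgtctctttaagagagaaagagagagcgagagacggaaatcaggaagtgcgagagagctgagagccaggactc

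In IFI16 the 2 matches overlap each other and start 58 and 53 bases before the RefSeq transcription start. That start follows base 159009906, beyond the end of the printed window. In IKBKE the single match lies on the minus strand, with its first printed base 115 bases before the start. Over the 250 bases before the start, this half-site occurs in 20.3% of 35116 promoters, so a match is common. Neither gene had a match in this window to the STAT element TTCNNNGAA (6.57% of promoters), the AP-1 element TGANTCA (6.57%), the cyclic AMP response element TGACGTCA (1.65%), the GC box GGGCGG (42.6%) or the ETS element CCGGAA (14.5%).

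Sequence composition differed among the promoters of the 7 genes that matched the table. The ratio of observed to expected CpG was 0.30 for IFI16 at the start shown and 0.22 for IKBKE, against a median of 0.56 over all promoters. The window of another IFI16 start, further upstream, had no CpG and 1 match to the half-site, on the minus strand. Among genes that were tested and not called, the ratio was 0.97 for TBK1, 1.29 for DDX41, 0.68 and 0.88 for the starts of TRIM32, and 0.44 for TRIM56. AIM2, nearly silent in all tumours, had a ratio of 0.15. These are descriptions of the reference sequence, with no measurement of chromatin.

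STING itself, the adaptor at the centre of the pathway, is encoded by TMEM173 (ENSG00000184584, chromosome 5, 139475534 to 139482935, minus strand, GENCODE 29 on GRCh38). Its level was 48.3, 44.6, 66.1 and 40.1 CPM in parental replicates 1 to 4 and 10.4, 18.4, 15.3 and 17.8 CPM in knockout replicates 1 to 4. The highest knockout tumour lay under the lowest parental tumour, and parental replicate 3 and knockout replicate 1 were the extremes of their groups. The log2 fold change of TMEM173 was -1.69 (SE 0.195, edgeR adjusted p = 9.05e-05). Its mean level in knockout tumours was 31.1% of that in parental tumours (95% interval 23.1% to 41.9%). A larger fall was seen in 2.69% of all tested genes. In bulk RNA, fewer cells of a type and less RNA per cell cannot be told apart, which holds for every value here. With any 1 tumour left out, parental replicates 2 and 3 included, the log2 fold change of TMEM173 stayed between -1.78 and -1.52.

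IFI16, a nuclear and cytosolic DNA sensor (ENSG00000163565, chromosome 1, 158999968 to 159055155, plus strand), differed most among the members. It was at 88.6, 87.2, 91.3 and 86.6 CPM in parental replicates 1 to 4 and at 6.82, 10.1, 15.1 and 10.2 CPM in knockout replicates 1 to 4. Parental tumours were nearly alike, with a coefficient of variation of 2.40% where counting error alone gives 2.30%. Knockout tumours ranged over 2.21-fold, with a coefficient of variation of 32.3% against 6.69% from counting error. IFI16 fell by 3.07 on the log2 scale (SE 0.188, edgeR adjusted p = 1.17e-06), to 11.9% of the parental level (95% interval 8.97% to 15.9%). Falls larger than this were seen in 0.906% of tested genes.

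The kinases that act downstream of STING are close relatives; IKBKE was called and TBK1 was not. IKBKE (chromosome 1, 206470476 to 206496889, plus strand), whose product IKKε is often inducible, was at 31.9, 31.0, 47.1 and 26.4 CPM in parental replicates 1 to 4. Knockout replicates 1 to 4 had 21.2, 22.6, 18.5 and 16.5 CPM, all lower than any parental tumour. The log2 fold change of IKBKE was -0.79 (SE 0.172, edgeR adjusted p = 0.00558), a level of 57.7% of the parental level (95% interval 44.4% to 75.1%). As for TMEM173, parental replicate 3 was the highest tumour. Leukocyte sums were 106 CPM in parental replicate 3 and 130 CPM in parental replicate 2. The part of leukocyte RNA in the values of IKBKE and TMEM173 was not tested.

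TBK1 (chromosome 12, 64451880 to 64502108, plus strand), the kinase present in most cells, was at 50.03, 48.2, 47.4 and 58.0 CPM in parental and 53.2, 58.5, 54.6 and 46.5 CPM in knockout replicates 1 to 4. The groups overlapped, with a log2 fold change of 0.06 (edgeR adjusted p = 0.684) and a 95% interval of -0.15 to 0.28. A fall as large as that of IKBKE lies outside this interval. An antisense gene on the other strand covers 14.7% of the annotated TBK1 exon bases and had 4 to 9 reads per library. These reads do not show how many TBK1 reads in the shared bases were lost or misassigned.

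IRF3, the transcription factor that the kinases activate (chromosome 19, 49659569 to 49665875, minus strand), was at 44.9 to 59.0 CPM in parental and 44.6 to 51.1 CPM in knockout tumours. Its log2 fold change was -0.10 (edgeR adjusted p = 0.50, 95% interval -0.32 to 0.12). The opposite-strand gene BCL2L12 shares 19.3% of IRF3's annotated exon bases, so reads there may be lost or misassigned. BCL2L12 itself had a log2 fold change of 0.03 (adjusted p = 0.879).

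**Figure D2:**
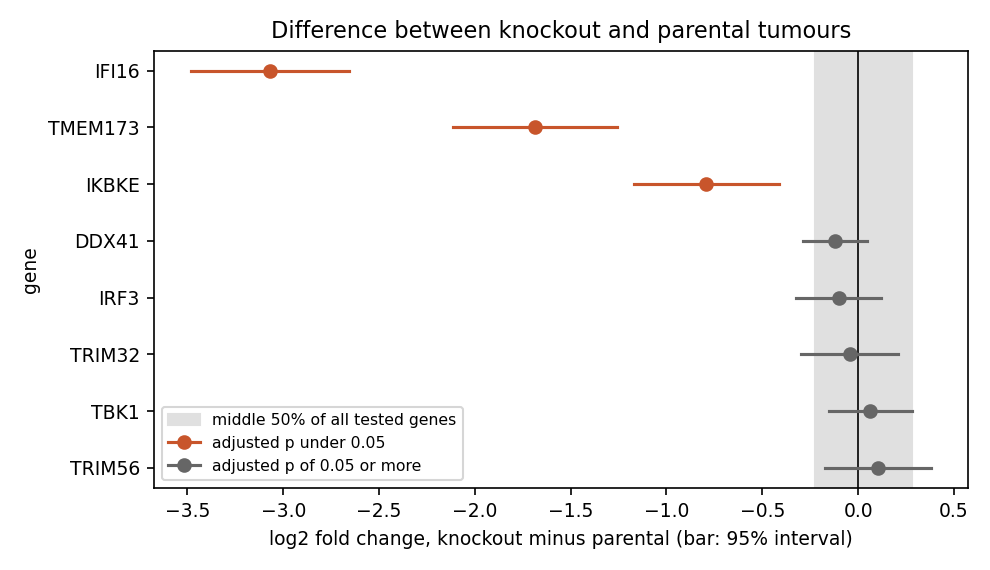
Log2 fold change of knockout against parental tumours with 95% intervals for the 8 tested genes; the grey band runs from the lower to the upper quartile of all 16219 tested genes. IFI16, TMEM173 and IKBKE lie left of the band, while the other 5 estimates lie within it.

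The remaining sensor and the ligases did not pass the test. DDX41, a DEAD-box helicase proposed as a DNA sensor, was at 88.4 to 95.6 CPM in parental and 80.8 to 90.8 CPM in knockout tumours (log2 fold change -0.12, 95% interval -0.29 to 0.05, edgeR adjusted p = 0.279). TRIM56, a ligase reported to act on cGAS and STING, was the most abundant member by CPM, at 134 to 192 and 149 to 200 CPM (log2 fold change 0.10, 95% interval -0.17 to 0.38, adjusted p = 0.590). TRIM32, a ligase reported to ubiquitinate STING, was at 18.6 to 21.9 and 16.0 to 21.4 CPM (log2 fold change -0.04, 95% interval -0.30 to 0.21, adjusted p = 0.814), and its sign turned to 0.04 without knockout replicate 4. Each of these 3 intervals lies above -1 and below 1.

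The enzyme and the inflammasome sensor at the start of the pathway were barely detected. CGAS had 2, 7, 7 and 1 reads in parental replicates 1 to 4 and 1, 0, 2 and 2 reads in knockout replicates 1 to 4. The groups overlapped, and the ratio of pooled counts, parental over knockout, was 3.36 (exact 95% interval 1.19 to 11.7; exact two-sided permutation p of the CPM = 0.143). Without the low-count filter, edgeR gave CGAS an adjusted p of 0.188. The parental tumours with 7 reads each were replicates 2 and 3, which also had the highest leukocyte sums; the part of host cells in this was not tested. AIM2 had 2, 0, 2 and 3 reads in parental and 0, 0, 1 and 1 reads in knockout replicates 1 to 4, a pooled ratio of 3.46 with an exact 95% interval of 0.659 to 34.2 (exact permutation p = 0.171). A count of 0 in 1 library allows up to 3 counts, and these intervals and limits cover counting error only.

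Levels of different genes can be compared only per length. As RPKM over merged exons, the parental order was DDX41 (20.4), IFI16 (16.7), TRIM56 (14.0), IRF3 (13.5), TMEM173 (12.9), TBK1 (10.7), IKBKE (8.99), TRIM32 (5.31), CGAS (0.048) and AIM2 (0.040). The ranges of neighbours in this order overlapped from IFI16 down to IKBKE and between CGAS and AIM2, so those neighbours cannot be separated. IFI16 had rank 2 in parental and rank 8 in knockout tumours, at 1.99 RPKM, and TMEM173 had ranks 5 and 7, at 4.02 RPKM in knockout tumours. In knockout tumours TMEM173 lay above IFI16 in 4 of 4 tumours, although their ranges over tumours overlapped.

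Ratios of members within a tumour do not depend on how libraries are scaled, and 6 of them were tested by exact permutation of the group labels, two-sided, with 4 tumours a group. The smallest p this test allows is 0.0286, reached by 5 of the 6 ratios, each with an adjusted p of 0.0343 over the 6. Each of these 5 ratios holds at least 1 of the 3 called members, in the same tumours. Their separation therefore largely restates those calls and is not further support for them. How often ratios of other genes separate was not measured. TMEM173 reads per TBK1 read were 0.965, 0.925, 1.39 and 0.692 in parental and 0.195, 0.315, 0.281 and 0.382 in knockout replicates 1 to 4. The ratio varied among parental tumours, with replicate 3 the highest and replicate 4 the lowest, and was 0.296 times as high in knockout tumours. TMEM173 per IRF3 ranged from 0.895 to 1.12 in parental and from 0.203 to 0.413 in knockout tumours.

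IFI16 fell further than TMEM173. The ratio of IFI16 to TMEM173 reads was 1.83, 1.95, 1.38 and 2.16 in parental and 0.658, 0.548, 0.985 and 0.573 in knockout replicates 1 to 4, so every parental tumour lay above 1 and every knockout tumour below it. IKBKE per TBK1 ranged from 0.456 to 0.993 in parental and from 0.339 to 0.398 in knockout tumours. The ratio of DDX41 to TMEM173, sensor to adaptor, was 2.97 times as high in knockout tumours. TRIM56 per TRIM32 overlapped between the groups (6.11 to 10.3 and 7.31 to 12.5; exact permutation p = 0.543, the same after adjustment).

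**Figure D3:**
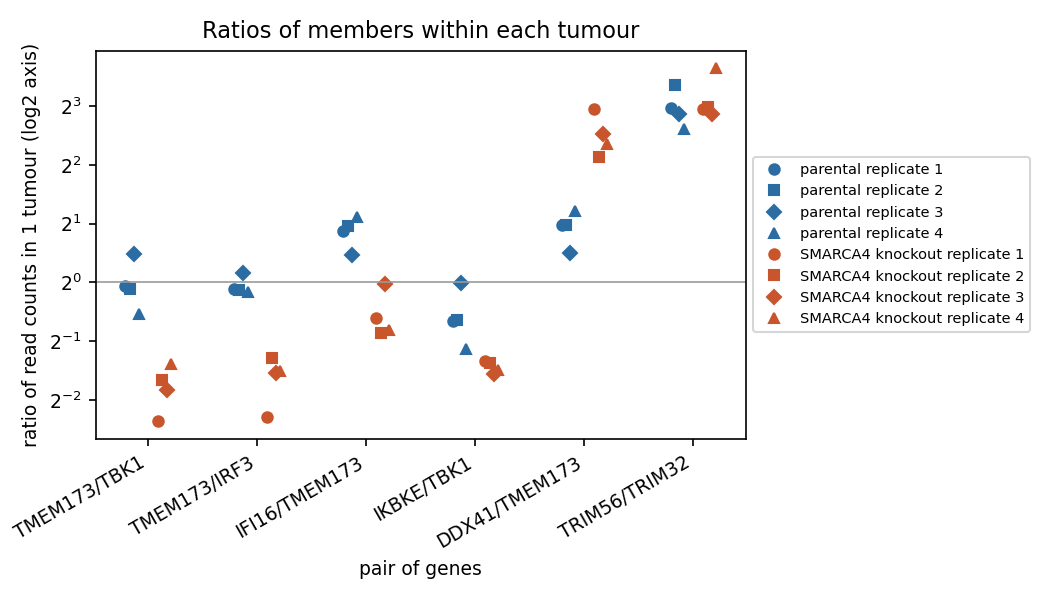
Ratio of the read counts of 2 members in the same tumour (log2 axis) for parental (blue) and knockout (orange) tumours; marker shape gives the replicate. Groups separate in 5 of the 6 ratios and overlap for TRIM56/TRIM32.

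Other genes of the pathway were taken from 6 lists with 159 genes, of which 119 were tested. Of these, 35 were called, 17 higher and 18 lower, or 29.4% against 27.0% of all tested genes, with a median log2 fold change of -0.02. The lists together were thus called about as often as any gene. Whether any single list differs from other genes was not tested.

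Genes that move or destroy cGAMP were called in 7 of 13 tested cases (53.8%, against 27.0% of all tested genes). Of these calls, 5 were higher and 2 lower, and the median log2 fold change of the list was -0.09. ENPP1, the extracellular enzyme that hydrolyses cGAMP, fell from 3.09 ± 0.568 to 1.47 ± 0.482 CPM (SD, n = 4 each; log2 fold change -1.08, edgeR adjusted p = 0.0129). ABCC1, an exporter of cGAMP among other substrates, rose from 294 ± 25.5 to 511 ± 20.7 CPM (0.80, adjusted p = 5.2e-05). SLC46A3, a lysosomal transporter, rose from 14.5 ± 2.57 to 31.4 ± 2.01 CPM (1.11, adjusted p = 0.000102). SMPDL3B (0.48), GJA1 (0.76), the gene of the gap junction protein connexin 43, and SLC46A1 (0.32) also rose. The call for SLC46A1 was lost without parental replicate 1, without knockout replicate 3 and without the low-count filter (adjusted p = 0.0628, 0.0680 and 0.0575).

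Genes of STING trafficking and regulation were all tested: of 38, 8 rose and 6 fell, with a median log2 fold change of 0.09. The share called was 36.8%, against 27.0% of all tested genes. TRIM38 fell from 28.1 ± 0.540 to 17.5 ± 2.28 CPM (SD, n = 4 each; log2 fold change -0.69, edgeR adjusted p = 0.000651), and TOLLIP, reported to stabilise STING, fell by 0.39 on the log2 scale (adjusted p = 0.00493). ATG16L1, an autophagy gene (0.63), TRIM29, a ligase reported to degrade STING (0.75), ZDHHC3, a Golgi palmitoyltransferase (0.41), and NPC1, a lysosomal cholesterol transporter (0.59), rose, with adjusted p-values of 0.000482, 0.00111, 0.00147 and 0.00669. TRIM29 was at 239 to 325 CPM in parental and 389 to 519 CPM in knockout tumours.

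Of 25 tested adaptors and transcription factors around the kinases, 2 rose and 2 fell, with a median log2 fold change of -0.04. The share called was 16.0%, against 27.0% of all tested genes. DTX4, a ligase reported to act on TBK1, fell from 65.2 ± 13.1 to 26.9 ± 1.32 CPM (SD, n = 4 each; log2 fold change -1.28, edgeR adjusted p = 3.5e-05), and STAT6, which STING can recruit, fell by 0.49 on the log2 scale (adjusted p = 0.0107). TRAF2 (0.41) and TICAM1, the gene of the Toll-like receptor adaptor TRIF (0.53), rose, with adjusted p-values of 0.00808 and 0.0209. The TICAM1 call was lost in 4 of the 8 fits that left out 1 tumour: without parental replicate 1 (adjusted p = 0.0543) or 4 (0.0508) and without knockout replicate 1 (0.0676) or 2 (0.0606).

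Among the other DNA sensors and their cofactors, 6 of 31 tested genes were called lower and none higher, with a median log2 fold change of -0.15. The share called was 19.4%. Of all tested genes 27.0% were called, 14.1% lower and 13.0% higher. HMGB3, a DNA-binding protein, fell from 372 ± 146.7 to 160 ± 8.04 CPM (SD, n = 4 each; log2 fold change -1.22, edgeR adjusted p = 0.00246), with parental tumours spread from 213 to 548 CPM; HMGB genes have processed pseudogenes that can share their reads. UNC93B1, which carries endosomal Toll-like receptors, fell by 0.52, and AGBL5 by 0.42 on the log2 scale (adjusted p = 0.00512 and 0.00263). POLR3B and POLR3C, subunits of RNA polymerase III, which can transcribe cytosolic DNA, fell by 0.46 and 0.31 (adjusted p = 0.0130 and 0.0118). HMGB2 fell by 0.68 (adjusted p = 0.0240), and its call was lost without parental replicate 1 (0.0595) or 4 (0.0531) and without knockout replicate 1 (0.0738), 2 (0.0589) or 3 (0.0685).

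Inflammasome genes split: of 11 tested, IL1B and IL18 rose, while CASP1 and CARD16 fell, with a median log2 fold change of 0.07. The share called was 36.4%, against 27.0% of all tested genes. CASP1, the protease that AIM2 complexes activate, fell from 9.96 ± 2.0 to 4.0 ± 1.06 CPM (SD, n = 4 each; log2 fold change -1.32, edgeR adjusted p = 0.000986). Its caspase-recruitment-domain relative CARD16 fell from 2.65 ± 0.577 to 1.05 ± 0.281 CPM (-1.33, adjusted p = 0.00256). CASP1 and CARD16 are neighbours that resemble each other in the part with that domain, where reads can be split between them. The substrates of caspase-1 went the other way: IL1B rose from 10.1 ± 1.34 to 22.3 ± 6.31 CPM (1.14, adjusted p = 0.00121) and IL18 from 60.7 ± 6.24 to 86.0 ± 6.80 CPM (0.50, adjusted p = 0.00262).

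PYCARD, MNDA and PYHIN1, chosen after their values were seen, were under the low-count filter. PYCARD, the adaptor that links AIM2 to caspase-1, had 3, 11, 18 and 2 reads in parental and 2, 1, 1 and 3 reads in knockout replicates 1 to 4. MNDA, a PYHIN relative of IFI16 expressed in myeloid cells, had 3, 35, 27 and 2 reads in parental and 5, 4, 1 and 0 reads in knockout replicates 1 to 4. PYHIN1 had 4, 13, 11 and 2 reads in parental and 8, 4, 6 and 3 reads in knockout replicates 1 to 4. All 3 genes were highest in parental replicates 2 and 3, the tumours with the highest leukocyte sums, and at 2 to 4 reads in the other parental tumours. They were picked with these values known, so the shared pattern is not a result about the lists. Of other genes under the filter, SLFN11 had 2, 25, 26 and 2 reads in parental and 5, 2, 4 and 6 in knockout replicates 1 to 4. ZBP1 had 3, 5, 12 and 3 reads in parental and 8, 3, 9 and 9 in knockout replicates 1 to 4. The part of leukocyte RNA in the values of the 3 genes was not tested.

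Interferon genes were the last list. Of 21, 14 had 0 counts in all 8 libraries, IFNB1 among them, and only IFNE, a constitutive epithelial interferon, was tested (249 reads in parental and 265 in knockout tumours, log2 fold change 0.10, not called). A count of 0 over the 4 libraries of a group allows up to 0.035 CPM of uniquely aligned reads. Reads that did not align uniquely, 4.52% to 8.11% per library, were not counted. Reads shared between genes of like sequence thus lie outside this limit.

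**Figure D4:**
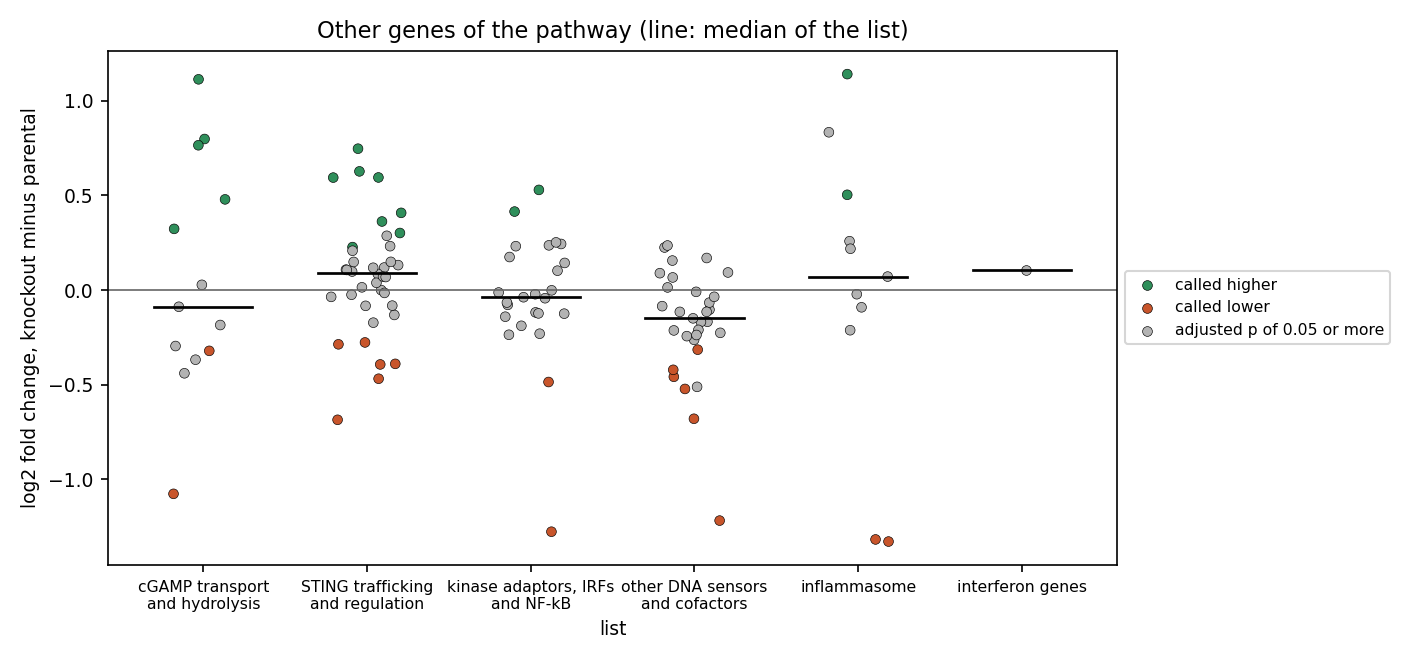
Log2 fold change of knockout against parental tumours for the 119 tested genes of the 6 lists; each point is a gene, coloured by its call, and lines give list medians. Called genes lie on both sides of 0 in 4 lists and on the lower side alone among the other DNA sensors and cofactors. In that list 19.4% were called, against 27.0% of all tested genes.

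The genomic surroundings of the 3 called members were described by 5 tested protein-coding genes on each side. Of these 30 neighbours, 16 were called, 13 lower and 3 higher, against 27.0%, 14.1% and 13.0% of all tested genes; whether neighbours differ from other genes was not tested. Around TMEM173, 4 of 10 neighbours fell and none rose (median log2 fold change -0.19). CXXC5, the second gene beyond it, fell by 1.86 (edgeR adjusted p = 2.98e-06), NRG2 by 1.20 (0.0317), DNAJC18 by 0.46 (0.0450) and UBE2D2 by 0.38 (0.00288) on the log2 scale. The NRG2 call was lost without parental replicate 3 (0.0925) or 4 (0.0514) and without knockout replicate 1 (0.0741), 2 (0.0848) or 3 (0.0854). The DNAJC18 call was lost without parental replicate 1 (0.0944), 2 (0.0576) or 3 (0.0970) and without knockout replicate 1 (0.0825), 3 (0.119) or 4 (0.104). With all tumours, DNAJC18 was not called under upper-quartile scaling (0.0609) or without the low-count filter (0.0703), and NRG2 not under limma-voom (0.0574).

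Around IFI16, 5 of 10 neighbours fell and 2 rose, over 3.15 Mb. KIRREL1, the tested gene before it, fell by 2.36 (edgeR adjusted p = 2.10e-06), CFAP45 by 2.44 (0.00384), TAGLN2 by 0.60 (0.00109), DUSP23 by 0.52 (0.0120) and ETV3 by 0.34 (0.0242) on the log2 scale. PEAR1 rose by 1.83 (5.67e-05) and SLAMF9 by 0.86 (0.0259). Around IKBKE, 4 of 10 fell and 1 rose: CTSE fell by 2.15 (0.000345), FCMR by 1.95 (0.0180), SLC26A9 by 1.03 (0.00597) and SRGAP2, the nearest tested gene before it, which has near-identical copies, by 0.84 (0.000147), while RASSF5, the nearest after it, rose by 0.91 (0.000899). The ETV3 call was lost without parental replicate 3 (0.0613) and without knockout replicate 3 (0.0565) or 4 (0.0533), and the FCMR call without knockout replicate 3 (0.0546) or 4 (0.0506). The SLAMF9 call was lost without parental replicate 1 (0.0722) or 3 (0.0657) and without knockout replicate 1 (0.0805) or 3 (0.0604). Without parental replicate 3, the log2 fold change of CFAP45 was -1.79 and that of FCMR -1.27, and both were still called. All called neighbours of TMEM173 were lower, while those of IFI16 and IKBKE lay in both directions.

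**Figure D5:**
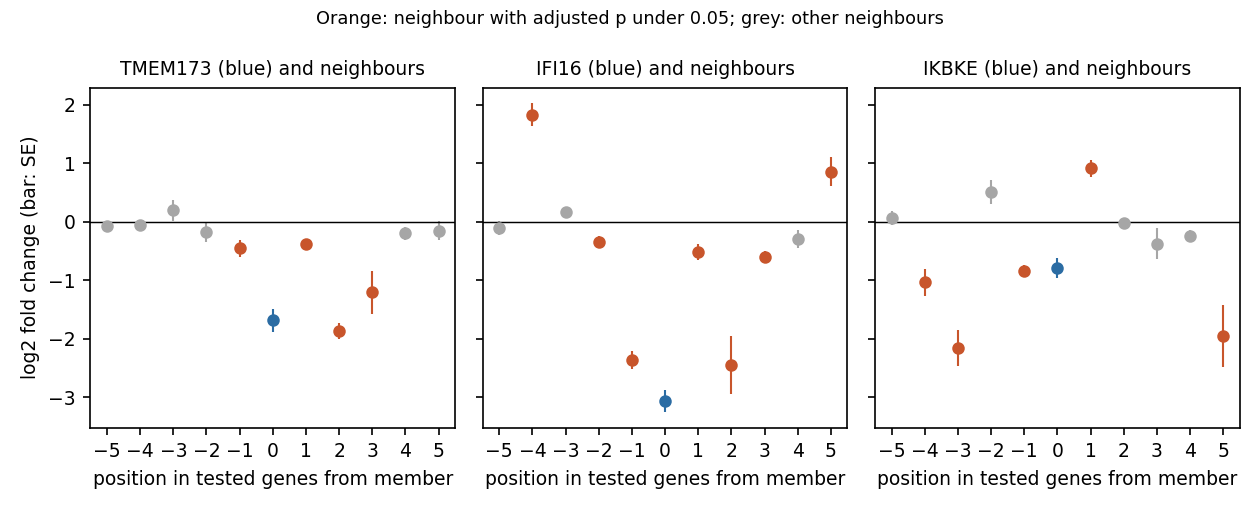
Log2 fold change (bars: SE) of TMEM173, IFI16 and IKBKE (blue) and of 5 tested protein-coding genes on each side, by order along the chromosome; orange neighbours have an adjusted p under 0.05. CXXC5 at position 2 is the neighbour of TMEM173 with the largest fall, and KIRREL1 and CFAP45 fell most around IFI16.

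The genes whose profiles over the 8 tumours were most like those of TMEM173 and IFI16 were found among 13052 genes by the root mean square difference of centred log2 CPM. For TMEM173 these were TP53I11 (0.151), SCIN (0.153) and SMPD3 (0.178), with log2 fold changes of -1.53, -1.48 and -1.76. For IFI16 they were LRATD1 (0.223), ENTPD3 (0.286) and SELPLG (0.293), with log2 fold changes of -3.31, -2.99 and -2.75. IFI16 and TMEM173 differed by 0.768, which gave TMEM173 rank 168 of 13052 in likeness to IFI16 and IFI16 rank 2152 in likeness to TMEM173. IKBKE differed from TMEM173 by 0.545, at rank 502. Likeness was measured over tumours that fall into 2 groups, which every changed gene shares.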

How the data were processed

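RNA sequencing counts of 8 xenograft tumours were used. The authors deposited unnormalised read counts for each gene symbol, 1 file per tumour. Per the submitters' processing notes, TopHat2 2.1.1 and HTSeq 0.11.0 were used with hg38. The annotation, strand setting and any removal of mouse reads are not given in the sources used here. The labels' protocols name a DNA library kit, a kind that does not itself mark strand, so reads of overlapping genes may not be separable. Summary lines were left out (assigned reads were 79.1% to 85.2%).

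Counts were fitted with edgeR 4.0.16 (filterByExpr, minimum count 10 and minimum total 15, TMM scaling, quasi-likelihood F-test, no covariate, all 8 tumours), after tests on simulated data in which DESeq2 1.42.0, an alternative here, made more false calls than edgeR. Log2 CPM used a prior count of 2 and ratios a pseudocount of 0.5. Positions and the exon lengths behind the RPKM values are from GENCODE 29, matched by symbol, which may not be the annotation the counts were made with. Promoters are from RefSeq, in which 7 of 10 members matched. No libraries agreed within sampling noise (chi-square per degree of freedom at least 8.21 within groups). The members and lists were chosen with earlier results of these data known. Named were all members, up to 6 called genes per list by p, called neighbours within 5 genes, the 3 nearest profiles and SMARCA4.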

Additional observations from a re-analysis of the deposited data

Results flagged for a closer look

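In 14 of 140 sets of 4 values, 1 tumour lay far from the other 3, where chance gives about 5% of sets. No CPM of a member itself did so. The ratio of TMEM173 to IRF3 was 0.16 on the log2 scale in parental replicate 3, against -0.16 to -0.12 in the other parental tumours. The ratio of TRIM56 to TRIM32 was 3.64 on the log2 scale in knockout replicate 4, against 2.87 to 2.98.

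Among genes of the lists, ENPP1 was at 0.748 CPM in knockout replicate 1 (others 1.63 to 1.76), TRAF2 at 27.8 CPM in knockout replicate 1 (23.6 to 24.2) and HMGB3 at 148 CPM in knockout replicate 1 (163 to 165). SLC46A1 was at 52.7 CPM in knockout replicate 3 (44.4 to 45.05), TRIM29 at 389 CPM in knockout replicate 2 (509 to 519) and POLR3B at 28.2 CPM in parental replicate 4 (20.8 to 21.8). Among neighbours and genes of like profile, PEAR1 was at 4.04 CPM in parental replicate 4 (7.03 to 7.61), SRGAP2 at 11.6 CPM in knockout replicate 3 (9.60 to 9.81), TP53I11 at 84.1 CPM in parental replicate 3 (59.3 to 62.2) and LRATD1 at 4.77 CPM in knockout replicate 1 (7.33 to 7.84). Endothelial marker genes summed to 16.1 CPM in knockout replicate 2 (9.86 to 10.2), and skeletal muscle genes to 18.9 CPM in knockout replicate 4 (1.07 to 1.87). Skeletal muscle genes were higher still in parental replicate 2, at 40.8 CPM, where the other parental tumours had 1.04 to 8.5 CPM and the spread of the group did not set it apart by the same measure.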

How the results depend on the processing

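The 3 calls (IFI16, TMEM173 and IKBKE) were the only calls among the members under each of the 8 other analyses of all tumours (DESeq2 size factors, upper-quartile scaling, DESeq2, limma-voom, 2 other filters, the replicate number as a block, a leukocyte score as a covariate) and in each of the 8 fits that left out 1 tumour. Values ran from -3.12 to -3.03 for IFI16, from -1.71 to -1.65 for TMEM173 and from -0.81 to -0.76 for IKBKE over the analyses of all tumours. Called genes numbered 3871 with the replicate block and 5297 with the leukocyte score, against 4385, and 3501 to 4721 with 1 tumour left out. Called genes of the 6 lists numbered 33 to 45, and 27 to 39 with 1 tumour left out. The 5 ratios that separated the groups did so with a pseudocount of 2 and without any 1 tumour. Of the results under other analyses, 943 were classed as the same, 39 lost the call and 1 turned its sign. The 943 include counts of called genes and ratios, which have no call to lose. TRIM32 was the 1 whose sign turned. Its log2 fold change ran from -0.0903 to 0.0425 with 1 tumour left out. It reached 0.0425 without knockout replicate 4 (edgeR adjusted p = 0.80), and the cause was not tested. Same-numbered tumours did not deviate together (correlations -0.19 to 0.09), so the groups share only the numbers; the block left the members at 3 calls and lost those of 4 named neighbours (DNAJC18, NRG2, ETV3 and SLAMF9). With CPM above 1 required in 4 tumours, FCMR had no value. NRG2 too had values in only 7 of the 8 other analyses of all tumours. The depth limits CGAS and AIM2, whose pooled ratios ran from 2.55 to 4.36 and from 2.59 to 5.17 with 1 tumour left out.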

Other observations

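Fibroblast sums overlapped between the groups (exact two-sided permutation p = 0.4), although LUM, a gene of that list, was called higher in knockout tumours (log2 fold change 5.00, edgeR adjusted p = 1.98e-06). Leukocyte sums (exact permutation p = 0.429) and endothelial sums (exact permutation p = 0.914) overlapped between the groups too.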
